A study of Mus musculus with 4 samples.

Results

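The 34 genes described here carry glucose into the cell, break it down to pyruvate and lactate, or respond to low oxygen, and they were taken by gene symbol from a table of 55339 rows. All 34 symbols were found. Bone-marrow leukemia cells of strain C57BL/6 gave polyadenylated RNA for 4 libraries, 2 of genotype WT (replicates 4 and 5) and 2 of genotype YBX1-/-, titled cKO (replicates 1 and 3) and called knockout here. The labels name no leukemia driver, no Cre line or promoter, no age and no pooling, and do not say whether replicates are separate mice, so the p-values below measure only the spread between these libraries, which may be technical. YBX1 is an mRNA-binding cold-shock domain protein, and the series asks what its loss does to leukemia cells and their mRNA. Ybx1 itself was at 19.70 in WT replicate 4, 10.002 in WT replicate 5, and 7.29 and 8.33 in knockout replicates 1 and 3, on the log2 scale of the deposited values, so both knockout libraries were lower than both WT libraries, by a gap of 1.68.

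Glycolysis turns glucose into pyruvate in a chain of cytosolic enzymes, and lactate dehydrogenase turns pyruvate into lactate, which monocarboxylate transporters let out. Under low oxygen the transcription factor HIF-1 escapes the prolyl hydroxylases that mark its alpha subunit for destruction, and it then raises most genes of this chain together with genes of mitophagy, collagen synthesis and vessel growth. It binds DNA at hypoxia response elements, whose core is ACGTG. Myeloid cells, neutrophils above all, rely heavily on glycolysis, and the marrow is a tissue low in oxygen.

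The libraries were uneven, which touches every value below. Knockout replicate 3 carries another number after RNA-seq in its title (2) than the other 3 libraries (1), and the labels do not say what it means. Among the 3 libraries numbered 1, that is without knockout replicate 3, the members' median difference was 0.17, beside -0.002 over all genes tested. There 11 members lay above both WT libraries and 10 below. The share of all genes on each side was not counted there, so these counts do not set the members apart. WT replicate 4 lay more than 1 log2 above WT replicate 5 in 34.0% of the 17303 genes tested and more than 1 below it in 30.3%. Its values also piled up: 24.8% of the tested genes lay between 4.7 and 5.6 in that library, against 6.12% to 6.37% in the other 3. For this reason knockout values are given against WT replicate 5 as well as against both WT libraries. All 10 genes fixed to check the label had a signal in every library. Their summed level was 24.56 and 16.80 in WT replicates 4 and 5, and 17.11 and 17.20 in knockout. The summed level of 8 mature neutrophil genes was lower in knockout, at 14.97 and 15.38 against 22.83 and 16.72 in WT replicates 4 and 5. Of the 8, 6 lay below both WT libraries, where 18.8% of all genes tested did. The part of this shift in the results below was not tested, and in bulk samples fewer cells of a type and less RNA per cell cannot be told apart. Monocyte genes summed to 12.55 and 12.62 in knockout against 17.92 and 13.05 in WT, but the 17.92 is almost wholly Cd68. Only 1 of the 6 tested monocyte genes lay below both WT libraries, beside the same 18.8%. Above WT replicate 4 lay 5 of the 6, beside 6665 of the 17303 genes tested. Against WT replicate 5, 5 of the 6 lay below and 0 above, beside 33.4% and 41.8% of all genes tested. Erythroid genes summed to 2.86 and 4.81 against 6.93 and 4.28, with 1 of the 5 tested below both WT libraries, again beside 18.8%. Of 7 T and NK cell genes, 4 (Cd3e, Cd3g, Cd4 and Cd8a) were listed at 0 in all 4 libraries. The list summed to 19.38 and 8.43 in WT and 9.38 and 9.46 in knockout, nearly all of it from Nkg7. Cd3d was at 2.59 and 0.54 in WT and 0.55 and 1.01 in knockout.

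Across the set, no gene passed the test between knockout and WT, and the members parted in both directions. Slc16a1, the lactate and pyruvate transporter MCT1, had the smallest p, and each knockout value exceeded each WT value, as for Slc2a3, Hk1, Pfkfb3, Pfkfb4, Tpi1, Gapdh, Pgk1 and Pdk1. Slc2a1, Hk2, Pfkp, Eno1, Vegfa and Ankrd37 had each knockout value under each WT value. Thus 9 of the 33 tested members (27.3%) were above both WT libraries, where 17.3% of all tested genes were, and 6 (18.2%) were below, where 18.8% were. Against WT replicate 5 alone, 14 members lay above and 14 below, 42.4% each, beside 41.8% and 33.4% of all genes tested. Limma called 0 of the 33 members at an adjusted p under 0.05, with adjusted p-values of 0.826 to 0.999, and 0 (0.0%) of all genes tested. At an unadjusted p under 0.05 limma had 1 member, Slc16a1, and 3.76% of all genes. Without WT replicate 5, which leaves WT replicate 4 alone for WT, limma called 6 members (Hk3, Pfkp, Aldoa, Gapdh, Eno1 and Ldha) and 28.7% of all genes. Without knockout replicate 1 or 3 it called 0 members and 0.15% or 0.509% of all genes, and without WT replicate 4 none of either. The median difference between knockout and WT was 0.36 over the members and -0.09 over all genes tested. With a minimum log2 value of 5 in 2 libraries they were 0.53 over the 27 members left and 0.60 over all genes left, so the members were then not above the rest. Without WT replicate 4 these medians were -0.03 and 0.07, so the sign of the members' median turns without that library.

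**Figure D1:**
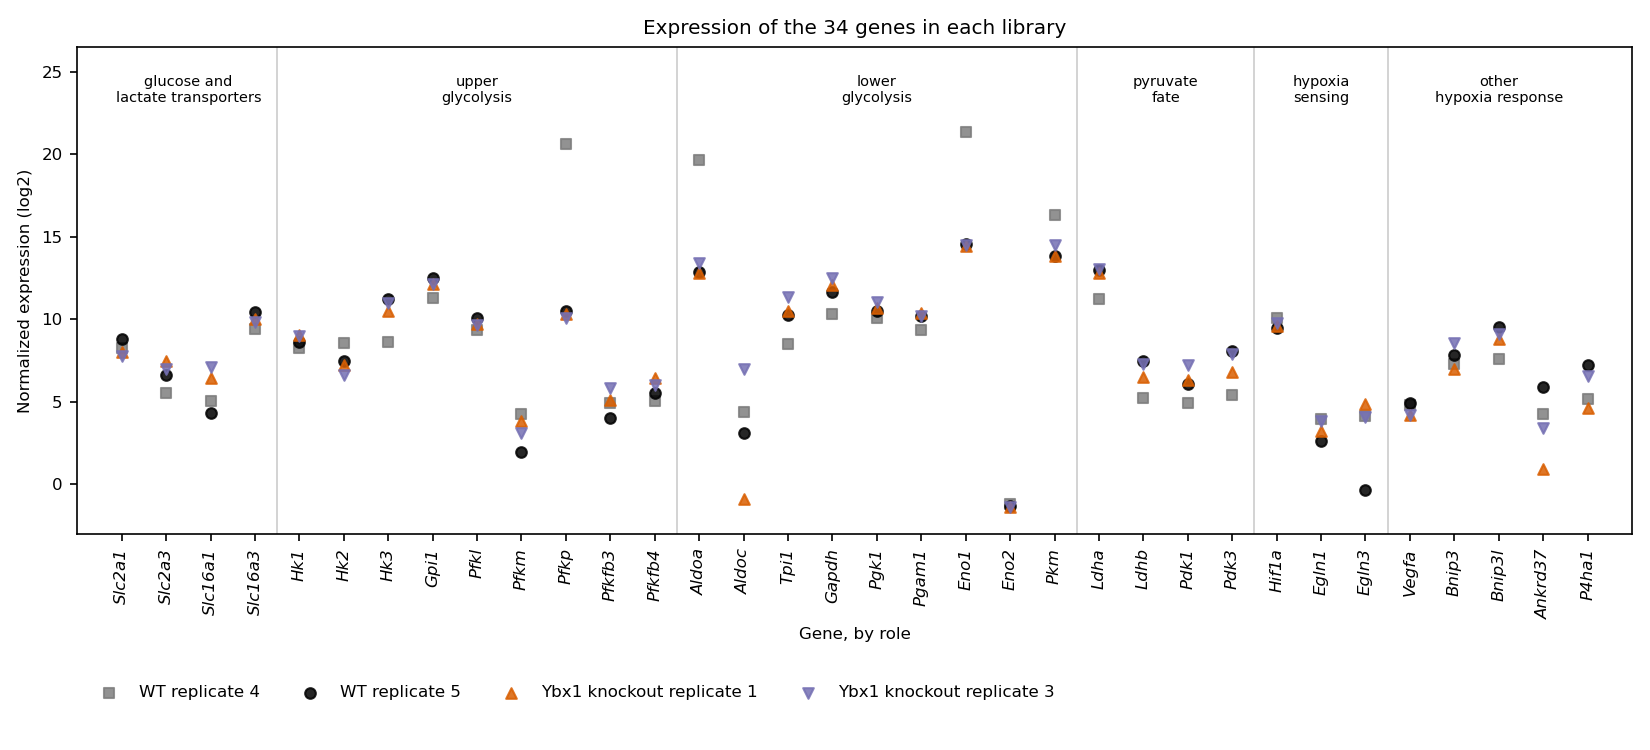
Normalized log2 expression of the 34 genes (vertical axis) in each of the 4 libraries (symbols), with the genes grouped by role along the horizontal axis. WT replicate 4 (grey squares) stands far above the other 3 libraries for Pfkp (20.60), Aldoa (19.63) and Eno1 (21.32) and below them for genes such as Hk3 (8.62) and Tpi1 (8.52).

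A few genes whose groups did not overlap are shown with the DNA before their start, because each holds the hypoxia response element core there: Slc16a1 and Pgk1 lay above both WT libraries, and Hk2 and Ankrd37 below. The sequences are from RefSeq on GRCm38.p6, 250 bases before the annotated start, 5′ to 3′ on the strand of the gene, with capitals for each ACGTG on the printed strand and each CACGT, which is the same core on the opposite strand. The places are chr3:104638414-104638663 on the plus strand for Slc16a1, chrX:106186850-106187099 on the plus strand for Pgk1, chr6:82774455-82774704 on the minus strand for Hk2 and chr8:45999851-46000100 on the minus strand for Ankrd37, of which 17 bases overlap an exon in GENCODE.
Slc16a1: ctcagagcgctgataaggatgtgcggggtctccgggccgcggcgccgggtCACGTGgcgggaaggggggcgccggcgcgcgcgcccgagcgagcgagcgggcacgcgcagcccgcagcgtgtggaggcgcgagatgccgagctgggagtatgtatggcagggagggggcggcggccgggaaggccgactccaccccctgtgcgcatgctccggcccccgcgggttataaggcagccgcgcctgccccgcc
Pgk1: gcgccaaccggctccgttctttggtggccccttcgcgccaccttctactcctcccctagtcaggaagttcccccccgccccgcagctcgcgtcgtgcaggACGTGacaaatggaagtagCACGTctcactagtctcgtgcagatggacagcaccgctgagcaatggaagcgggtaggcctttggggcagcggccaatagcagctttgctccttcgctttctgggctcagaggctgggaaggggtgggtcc
Hk2: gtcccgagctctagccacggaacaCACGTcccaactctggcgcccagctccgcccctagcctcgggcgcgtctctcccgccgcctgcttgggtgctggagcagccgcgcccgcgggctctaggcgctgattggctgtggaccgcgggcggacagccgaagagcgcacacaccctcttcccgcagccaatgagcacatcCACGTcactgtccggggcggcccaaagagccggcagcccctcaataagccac
Ankrd37: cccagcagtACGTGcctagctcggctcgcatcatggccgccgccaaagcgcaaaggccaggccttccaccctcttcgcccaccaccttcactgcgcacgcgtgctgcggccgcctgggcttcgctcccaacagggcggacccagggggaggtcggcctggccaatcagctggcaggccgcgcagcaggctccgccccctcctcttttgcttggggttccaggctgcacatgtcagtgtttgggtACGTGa
In Slc16a1 the core stands once, inside the palindrome CACGTG, a form of the E-box that MYC and MAX also bind. The other 3 genes have 2 cores each. RefSeq starts were found for 32 of the 34 genes, all but Bnip3l and Slc2a3, with 46 starts in total. At least 1 core stood before 23 of these 46 starts (50.0%), and before 16.6% of all 32851 starts in the table. At least 2 stood before 13.0% and 1.93%. CACGTG stood before 13.0% of the members' starts and 6.02% of all starts, and the Y-box motif CCAAT after which YBX1 is named, on either strand, before 34.8% and 33.8%. Median GC content was 61.0% and 52.4%, and its part in the higher share of the core was not tested. The core is present in genes on either side of WT, and a match is a description of letters, not of a bound site.

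The glucose transporters lay apart from WT in opposite directions, while of the lactate transporters only Slc16a1 lay apart. Slc2a1 (chromosome 4, 119108711 to 119137983, plus strand, GRCm38), the basal glucose transporter GLUT1, was at 8.25 in WT replicate 4 and 8.81 in WT replicate 5, and at 7.99 and 7.80 in knockout replicates 1 and 3. Slc2a3 (chromosome 6, 122727809 to 122801640, minus strand), the high-affinity transporter GLUT3, was at 5.54 and 6.60 in WT and at 7.45 and 6.95 in knockout. So both knockout libraries were lower for GLUT1 and higher for GLUT3 than both WT libraries, with gaps of 0.26 and 0.35. The limma difference was -0.63 (SE 0.70, adjusted p = 0.830) for Slc2a1 and 1.13 (SE 0.73, adjusted p = 0.826) for Slc2a3, and neither passed. Against WT replicate 5 the knockout mean of Slc2a1 was 1.88-fold lower and that of Slc2a3 1.51-fold higher.

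Slc16a1 (chromosome 3, 104638668 to 104658462, plus strand), whose promoter is the E-box one above, was at 5.02 and 4.29 in WT replicates 4 and 5 and at 6.43 and 7.08 in knockout replicates 1 and 3. The gap of 1.41 between the groups is the widest among the 33 tested members. Means were 4.66 ± 0.51 (SD, n = 2) for WT and 6.75 ± 0.46 (SD, n = 2) for knockout. The limma difference was 2.095 (SE 0.72, unadjusted p = 0.0370) and did not pass after adjustment (adjusted p = 0.826). Against WT replicate 5 the difference was 2.46, a 5.49-fold higher level, and against WT replicate 4 it was 1.73. Slc16a3, the MCT4 transporter that exports lactate from highly glycolytic cells, was at 9.39 and 10.41 in WT and 9.98 and 9.83 in knockout, inside the WT range.

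The ratio of 2 paralogs within a library is free of that library's overall scale, and gene length cancels when such ratios are compared between libraries. It does not remove unevenness that differs from gene to gene, as in WT replicate 4. There Slc2a3 (5.54) and Slc16a1 (5.02) lie in the range where that library's values pile up. Of 14 paralog pairs in the set, those of the transporters and of hexokinases 1 and 2 are described here, chosen after the values were seen. The log2 ratio of Slc2a3 to Slc2a1 was -2.70 and -2.20 in WT replicates 4 and 5 and -0.54 and -0.84 in knockout replicates 1 and 3, a 3.39-fold shift toward GLUT3. The ratio of Slc16a1 to Slc16a3 was -4.37 and -6.12 in WT and -3.56 and -2.76 in knockout, a 4.25-fold shift toward MCT1. The ratio of Hk1 to Hk2 was -0.29 and 1.15 in WT and 1.84 and 2.35 in knockout, a 3.17-fold shift toward hexokinase 1. In these 3 pairs the groups did not overlap, as in 5 of the 14. The others were Pfkm to Pfkp, with WT replicate 4 far apart, and Egln1 to Egln3, with a gap of 0.048. Of all single genes tested, 17.3% lay above both WT libraries and 18.8% below, so non-overlap in 5 of 14 pairs does not set the pairs apart. Without WT replicate 4 the shift of Hk1 to Hk2 was 0.95 in place of 1.67 on the log2 scale. Without WT replicate 5 that of Slc16a1 to Slc16a3 was 1.21 in place of 2.09. The exact two-sided permutation p was 0.333 for each, which is the smallest that 2 against 2 libraries can give, so these shifts cannot pass any threshold. A ratio shows unequal change of the paralogs, not which of them changed.

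Upper glycolysis traps glucose and commits it at phosphofructokinase. Hk1 (chromosome 10, 62268855 to 62379908, minus strand), the constitutive hexokinase, was at 8.28 and 8.59 in WT replicates 4 and 5 and at 9.05 and 8.96 in knockout replicates 1 and 3. Hk2 (chromosome 6, 82725025 to 82774454, minus strand), the inducible hexokinase and a HIF target, was at 8.57 and 7.44 in WT and at 7.22 and 6.61 in knockout. The groups lay apart in opposite directions, by gaps of 0.37 for Hk1 and 0.22 for Hk2, with limma differences of 0.57 (SE 0.73, adjusted p = 0.847) and -1.09 (SE 0.76, adjusted p = 0.826) that did not pass. Hk3, the hexokinase of myeloid cells, was at 8.62 and 11.21 in WT and 10.52 and 10.96 in knockout, and its direction turned with the library left out, from 2.12 without WT replicate 5 to -0.47 without WT replicate 4.

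Pfkfb3 and Pfkfb4 make or break fructose 2,6-bisphosphate, the activator of phosphofructokinase. Pfkfb3 was at 4.92 and 4.01 in WT and 5.13 and 5.80 in knockout, and Pfkfb4 at 5.05 and 5.54 in WT and 6.46 and 6.003 in knockout. Both lay above both WT libraries, by gaps of 0.21 and 0.47, with limma differences of 1.001 (SE 0.78) and 0.94 (SE 0.68), each with an adjusted p of 0.826. Among the phosphofructokinase subunits themselves, Pfkl, the liver type and the usual one of leukocytes, was at 9.32 and 10.08 in WT and 9.74 and 9.64 in knockout. Pfkp, the platelet type, was at 20.60 in WT replicate 4 and 10.48 in WT replicate 5, against 10.31 and 10.08 in knockout. Its limma difference of -5.34 (SE 4.17, adjusted p = 0.826) became -0.28 without WT replicate 4, so nearly all of it rests on that library. Pfkm, the muscle type, was at 4.25 and 1.95 in WT and 3.81 and 3.10 in knockout. Gpi1, the isomerase between the hexokinase and phosphofructokinase steps, was at 11.30 and 12.47 in WT and 12.14 and 12.15 in knockout. The knockout values of Pfkm and Gpi1 lay inside the WT range.

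Lower glycolysis runs from aldolase to pyruvate kinase. Of its 8 tested genes, 3 (37.5%) lay above both WT libraries and 1 (12.5%), Eno1, below, beside 17.3% and 18.8% of all genes tested. Tpi1, triose phosphate isomerase, was at 8.52 and 10.26 in WT replicates 4 and 5 and at 10.47 and 11.34 in knockout replicates 1 and 3. Gapdh, which oxidises glyceraldehyde 3-phosphate, was at 10.29 and 11.67 in WT and 12.07 and 12.49 in knockout. Pgk1, the kinase of the next step, was at 10.09 and 10.48 in WT and 10.66 and 11.02 in knockout. The 3 enzymes act one after another, and their knockout values were above WT replicate 5 by 0.64, 0.61 and 0.37 on average, which is 1.56-, 1.53- and 1.29-fold. The gaps between the groups were 0.20, 0.409 and 0.19. Each is narrower than the difference within the knockout pair, at 0.87, 0.412 and 0.36. Their limma differences of 1.51 (SE 1.17), 1.30 (SE 1.62) and 0.56 (SE 1.11) did not pass, with adjusted p-values of 0.826, 0.845 and 0.891.

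Pgam1, the mutase after Pgk1, was at 9.33 and 10.22 in WT and 10.40 and 10.20 in knockout. Aldoa, the main aldolase, was at 19.63 and 12.89 in WT and 12.77 and 13.43 in knockout. Eno1 (chromosome 4, 150236721 to 150248879, plus strand), the main enolase, was at 21.32 and 14.58 in WT and 14.43 and 14.51 in knockout. Pkm, pyruvate kinase, was at 16.33 and 13.82 in WT and 13.85 and 14.51 in knockout. In these last 3 genes WT replicate 4 was the highest library, and without it the limma differences of -3.15, -3.48 and -0.89 became 0.22, -0.11 and 0.36. Eno1, Aldoa and Pgk1 share sequence with copies that the table lists on rows of their own, so reads may be split between them: Eno1b was at 16.20 in WT replicate 4 and 8.63, 8.30 and 8.35 in the others, and Pgk1-rs7 at 5.75 and then 0.99, 1.72 and 1.99. Aldoc, the brain type of aldolase, differed most within the knockout pair, at -0.91 and 6.99 in the knockout pair and 4.40 and 3.09 in WT. Eno2, the neuronal enolase, was below 0 in every library, between -1.39 and -1.21, and was the 1 member not tested.

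**Figure D2:**
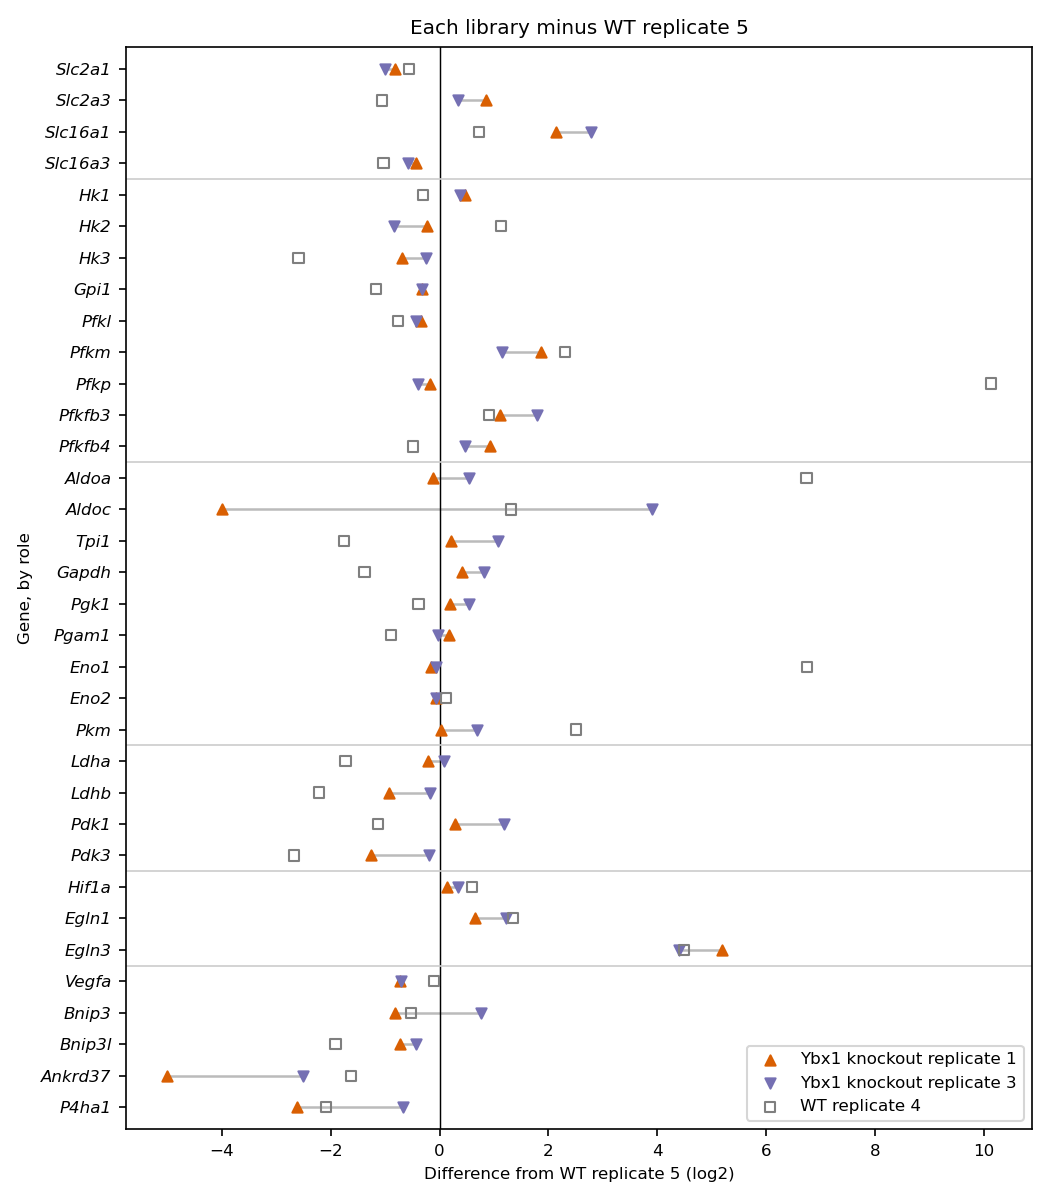
Difference of each library from WT replicate 5 on the log2 scale (horizontal axis) for the 34 genes (vertical axis, by role). Filled triangles joined by a line are the knockout pair and open squares are WT replicate 4. The knockout pair is within 1 log2 of each other in all tested genes but Aldoc, Pdk3, Bnip3, Ankrd37 and P4ha1, and Egln3 and Slc16a1 are the genes with both knockout triangles beyond 2.1 on the right, while the open squares of Pfkp, Aldoa and Eno1 lie farther right than any triangle.

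At the end of the pathway, pyruvate goes to lactate or into mitochondria. Ldha, the main lactate dehydrogenase subunit and a HIF target, was at 11.25 and 12.98 in WT and 12.77 and 13.06 in knockout, and Ldhb at 5.23 and 7.45 in WT and 6.51 and 7.28 in knockout. Both spanned or lay inside WT values, and the knockout mean of Ldha differed from WT replicate 5 by -0.06. Pdk1, a kinase that shuts pyruvate dehydrogenase under low oxygen, was at 4.91 and 6.05 in WT and 6.32 and 7.24 in knockout, above both WT libraries by a gap of 0.28. For Pdk1 limma gave 1.30 (SE 0.79, adjusted p = 0.826), which did not pass. Pdk3, a kinase of the same family, was at 5.40 and 8.06 in WT and 6.80 and 7.87 in knockout, between the WT libraries. All 4 of these genes were lowest in WT replicate 4, at differences from WT replicate 5 of -2.67 to -1.14.

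Hif1a, the oxygen-regulated subunit of HIF-1, was at 10.06 and 9.46 in WT replicates 4 and 5 and at 9.60 and 9.79 in knockout replicates 1 and 3. The knockout values lay between the WT values, with a limma difference of -0.06 (SE 0.90, adjusted p = 0.986). HIF-1 activity is set mainly at the protein level, which these data do not measure. Egln1, the main prolyl hydroxylase that senses oxygen, was at 3.95 and 2.59 in WT and 3.23 and 3.81 in knockout. Egln3 (chromosome 12, 54178981 to 54203860, minus strand), a hydroxylase that HIF itself induces, was at 4.16 and -0.33 in WT and 4.85 and 4.07 in knockout. Egln3 thus stood 27.7-fold above WT replicate 5, a library where its value is below 1 on the linear scale, but knockout replicate 3 lay below WT replicate 4 and the groups overlapped. For Egln3 limma gave 2.55 (SE 1.66, adjusted p = 0.826), which did not pass.

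Of the remaining hypoxia-response genes, Ankrd37 and Vegfa had groups that did not overlap, with knockout lower. Ankrd37 (chromosome 8, 45996902 to 46005707, minus strand), an ankyrin-repeat gene and direct HIF target, was at 4.27 and 5.89 in WT replicates 4 and 5 and at 0.89 and 3.39 in knockout replicates 1 and 3. Means were 5.08 ± 1.15 (SD, n = 2) for WT and 2.14 ± 1.76 (SD, n = 2) for knockout, apart by a gap of 0.89 that is narrower than the difference within either pair. The limma difference of -2.94 (SE 1.22) had an adjusted p of 0.826 and did not pass. Vegfa (chromosome 17, 46016993 to 46032369, minus strand), the vessel growth factor, was at 4.81 and 4.91 in WT and 4.19 and 4.197 in knockout. Means of 4.86 ± 0.08 (SD, n = 2) for WT and 4.19 ± 0.003 (SD, n = 2) for knockout lay apart by a gap of 0.61. The limma difference was -0.67 (SE 0.71, adjusted p = 0.829). That SE comes mostly from the spread of genes at like levels, which limma lends to each gene, and not from these SDs. Vegfa is the tightest of the 33 tested members within both pairs, but in WT replicate 4 it lies in the range where that library's values pile up. So do Slc2a3, Slc16a1, Pfkfb3, Pfkfb4, Ldhb, Pdk1, Pdk3 and P4ha1, which makes 9 of the 33 tested members (27.3%).

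Bnip3 and Bnip3l, receptors that mark mitochondria for removal under low oxygen, were at 7.29 and 7.81 and at 7.59 and 9.50 in WT. In knockout they were at 6.99 and 8.57 and at 8.77 and 9.08, so the groups overlapped for both. P4ha1, a collagen prolyl hydroxylase subunit, was at 5.15 and 7.24 in WT and 4.61 and 6.57 in knockout. Of the 5 genes of this group, 4 were under WT replicate 5 in the knockout pair and 0 over it, and the median of the 5 differences was -0.72. The 3 genes of oxygen sensing had both knockout values above WT replicate 5. Over all genes tested 33.4% were under and 41.8% over, and with so few genes these counts set neither group apart.

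The libraries of each pair were compared over the members. The median absolute difference was 0.499 within the knockout pair and 1.31 within the WT pair over the 33 tested members, beside 0.455 and 1.40 over all genes tested. WT replicate 4 was more than 1 log2 above WT replicate 5 in 9 members and more than 1 below it in 13, beside 34.0% and 30.3% of all genes tested. The knockout mean was within 0.5 log2 of WT replicate 5 in 14 members and more than 1 away from it in 6, namely Slc16a1, Pfkm, Pfkfb3, Egln3, Ankrd37 and P4ha1. Of all 17303 genes tested, 8385 were within 0.5 and 4509 more than 1 away, so the members do not stand out by these counts.

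The authors' deposited table called Aldoa and Eno1 lower and no member higher at an adjusted p under 0.05, where it called 3.96% of the tested genes with a fold change lower and 0.157% higher. Aldoa stood at -5.35 (adjusted p = 0.0404) and Eno1 at -5.77 (adjusted p = 0.0140) among the log2 fold changes of the authors' deposited table. Both are genes whose WT mean is carried by WT replicate 4. The column is headed as WT against cKO and is read here as knockout over WT, since its sign was opposite to the limma difference in only 15.7% of genes. The authors' deposited table gave Slc16a1 the highest fold change of the set, 3.12, with an adjusted p of 0.0895. The sample columns give Slc16a1 a lower ratio, listed below.

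Several fold changes of the authors' deposited table differ widely from the ratio that the sample values give. The log2 ratio of linear means over the sample columns was -5.50 for Aldoa, -5.86 for Eno1 and -9.40 for Pfkp, close to -5.35, -5.77 and -9.21 in the authors' deposited table. For Hk3, Gpi1 and Hif1a the ratio was 0.32, 0.14 and -0.09, but the authors' deposited table gives -5.18, -4.52 and -5.15. Ldha and Gapdh stood at 0.57 and 1.16 by the sample columns and at -1.86 and -0.62 in the authors' deposited table. In all, 6 of the 33 members had a deposited fold change more than 1 log2 below this ratio, where 28.8% of genes did. Another 3, Slc16a1, Hk2 and Pfkm, had one more than 1 above it, where 2.93% did. For Slc16a1 the ratio was 2.09 and the deposited fold change 3.12. Within 0.5 of the ratio lay 15 members, where 52.1% of genes did. The sign was opposite to the limma difference in 8 members: Slc2a3, Hk3, Gpi1, Pfkl, Aldoc, Gapdh, Ldha and Ldhb. The authors' deposited table lists a p-value of exactly 1 for Pfkp, Hif1a, Pdk3 and P4ha1, as for 9.01% of genes, beside a fold change of -9.21 for Pfkp. For those 8 members the direction given here is that of the mean of the log2 values. For Aldoc, whose knockout values lie far apart, the ratio of linear means was 2.11, of the same sign as the 2.75 in the authors' deposited table.

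**Figure D3:**
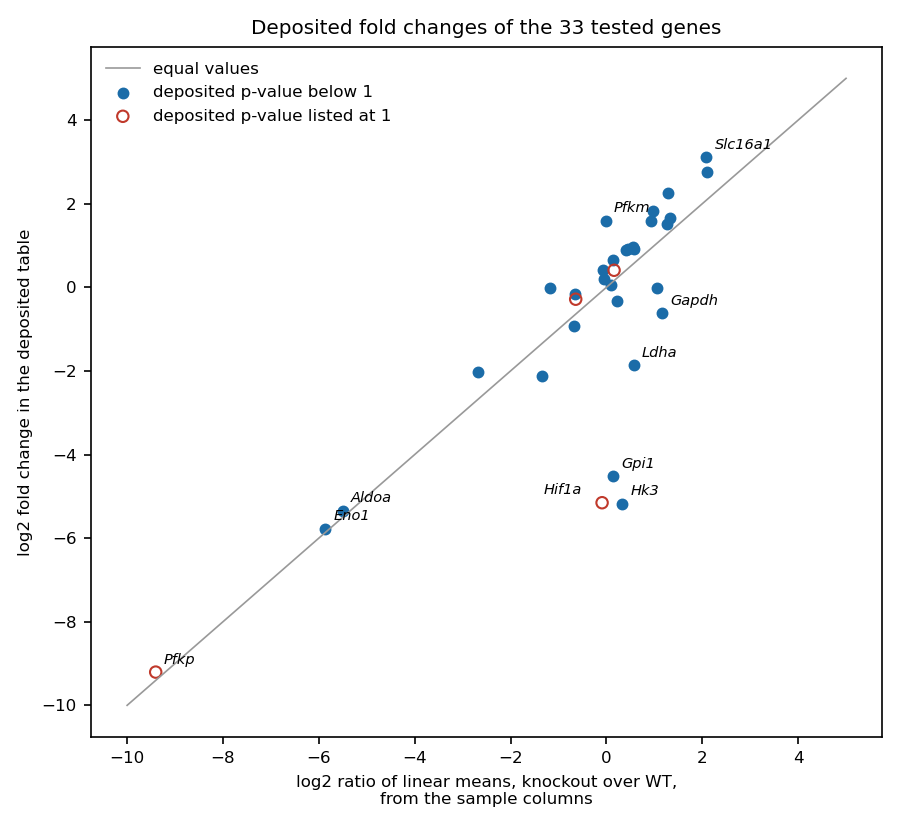
Log2 fold change in the authors' deposited table (vertical axis) against the log2 ratio of linear means, knockout over WT, computed from the sample columns (horizontal axis), for the 33 tested genes, with the line of equal values. Aldoa, Eno1 and Pfkp lie near the line, while Hk3, Gpi1, Hif1a and Ldha lie well below it, and open circles mark a p-value listed at 1.

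The neighbouring pathways also held no gene called by limma, with 0.826 as the smallest adjusted p in each of the 5 lists. All 10 genes of the pentose phosphate pathway, which branches off glucose 6-phosphate to make NADPH and ribose, were tested. Of these, 5 lay above both WT libraries (G6pdx, Pgd, Rpe, Prps1 and Prps2) and 0 below, beside 17.3% and 18.8% of all genes tested. Genes of these lists that are named from a count or a call, Taldo1 and Pdp1 included, were chosen after their values were seen. Rpe was at 5.74 and 8.54 in WT and 8.72 and 9.09 in knockout. Against WT replicate 5 alone, 8 lay above and 0 below, with a median difference of 0.23, beside 41.8%, 33.4% and a median of 0.07 over all genes. The authors' deposited table called Taldo1, transaldolase, lower (log2 fold change -8.03, adjusted p = 0.00103), and WT replicate 4 was at 20.75 for it, against 11.60, 11.73 and 11.72 in the others.

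Of 11 tested genes of pyruvate entry into mitochondria, 5 lay above both WT libraries (Mpc1, Pdha1, Pdhb, Dld and Pcx) and 0 below, where 17.3% and 18.8% of all genes did. Against WT replicate 5 alone the counts were 5 above and 1 below, beside 41.8% and 33.4% of all genes tested. Mpc1, a subunit of the mitochondrial pyruvate carrier, was at 5.85 and 9.01 in WT and 9.49 and 9.71 in knockout. Pdha1, a catalytic subunit of pyruvate dehydrogenase, was at 5.72 and 8.41 in WT and 9.21 and 8.94 in knockout. The median difference of this list from WT replicate 5 was 0.29, beside 0.07 over all genes tested. The authors' deposited table called 1 gene of the list lower, where it called 3.96% of the tested genes with a fold change lower. That gene was Pdp1, the phosphatase that turns pyruvate dehydrogenase on (log2 fold change -5.05, adjusted p = 0.0324). WT replicate 4 was at 14.54 for Pdp1, against 7.71 in WT replicate 5 and 7.48 and 8.51 in knockout.

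Of 16 tested further glycolysis genes, 2 lay above both WT libraries, Pgm1 and Gpd1, and 3 below, Adpgk, Gapdhs and Pgam2, which is 12.5% and 18.8%, beside 17.3% and 18.8% of all genes. Pgm1, a phosphoglucomutase that links glycogen to glycolysis, was at 5.35 and 5.11 in WT and 7.64 and 7.81 in knockout. Its limma difference of 2.49 (SE 0.63, unadjusted p = 0.0125, adjusted p = 0.826) exceeds that of Slc16a1 and did not pass either. The WT replicate 4 value of Pgm1 lies in the range where that library's values pile up.

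Among 12 tested HIF subunits and regulators, 4 lay above both WT libraries (Hif1an, Cul2, Eloc and Elob) and 1 below, Crebbp, a coactivator of HIF, beside the same 17.3% and 18.8%. Hif1an, the asparagine hydroxylase that blocks the coactivator contact of HIF, was at 5.41 and 6.81 in WT and 7.73 and 7.75 in knockout. Elob, an elongin subunit of the VHL ubiquitin ligase, was at 5.93 and 9.52 in WT and 9.76 and 9.98 in knockout. Of 31 other HIF target genes, 11 lay above both WT libraries (35.5%, beside 17.3% of all genes) and 6 below (19.4%, beside 18.8%). The median difference of the 31 from WT replicate 5 was 0.38. In WT replicate 4, 11 of the 31 (35.5%) lay between 4.7 and 5.6, where that library's values pile up, beside 24.8% of all genes. Sap30, Kdm4b and Ddit4 are among them, and Hif1an lay in that range too. Sap30, a corepressor subunit, was at 5.30 and 5.94 in WT and 7.37 and 8.62 in knockout (limma difference 2.38, unadjusted p = 0.0299, adjusted p = 0.826). Kdm4b, a histone demethylase that HIF induces, was at 5.01 and 2.43 in WT and 6.39 and 6.43 in knockout. Ccng2, a cyclin of the G type, was at 5.61 and 7.68 in WT and 8.49 and 8.69 in knockout. Ddit4, an inhibitor of mTORC1 under stress, was at 5.23 and 6.14 in WT and 7.31 and 6.87 in knockout. Lower genes, chosen after their values were seen, include Bhlhe40, a transcriptional repressor, at 10.08 and 11.03 in WT and 9.90 and 9.08 in knockout. Cxcr4, the chemokine receptor that holds cells in the marrow, was at 4.43 and 4.24 in WT and 3.46 and 3.57 in knockout. HIF targets thus lay on both sides in the longer list as they did among the members, with Ankrd37 and Vegfa lower and Pgk1 and Pdk1 higher.

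**Figure D4:**
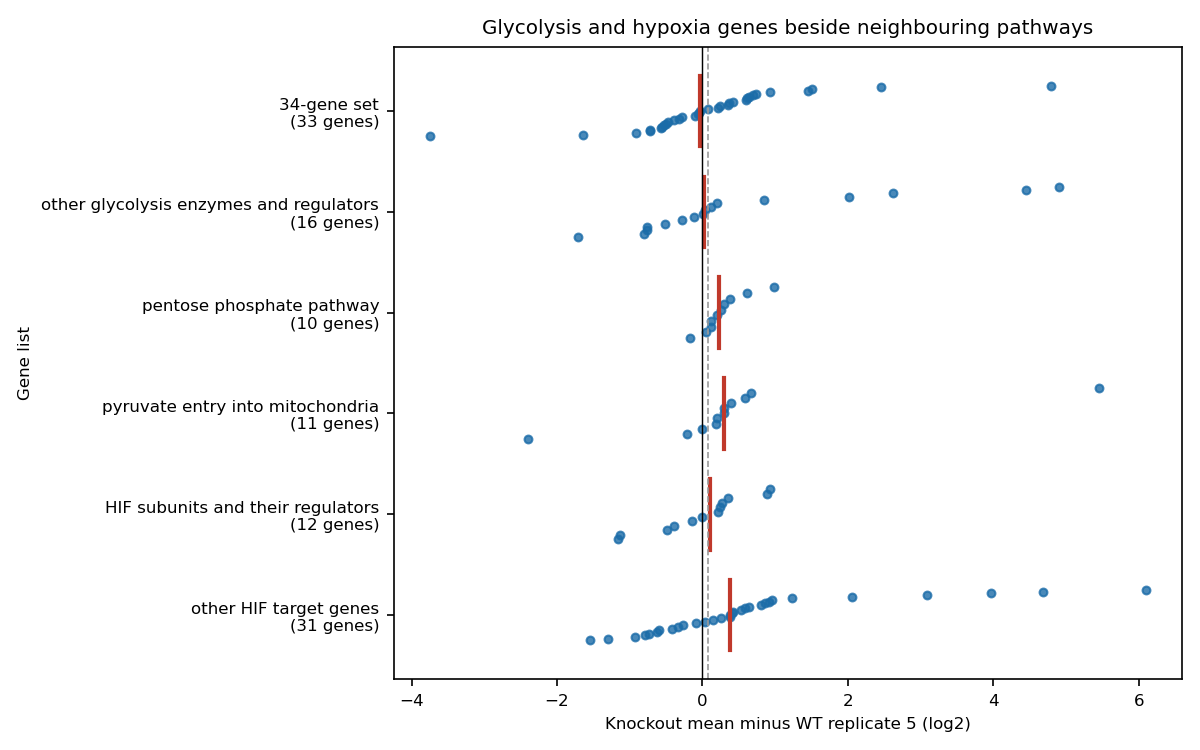
Knockout mean minus WT replicate 5 on the log2 scale (horizontal axis) for each tested gene (points) of the 34-gene set and of 5 neighbouring gene lists (vertical axis); red bars are list medians and the dashed line is the median of all tested genes, 0.07. The median of the 34-gene set is -0.03, and the medians of the other lists lie between 0.02 and 0.38.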

How the data were processed

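Polyadenylated RNA was measured by RNA-seq in 4 libraries, 2 WT and 2 knockout, grouped by title. Per the labels' protocols, fragmented mRNA was copied with random primers. Build GRCm38 and the tools featureCounts, HISAT2 2.1.0, DESeq2 and CASAVA stand in the submitters' processing notes, without role or order. The authors deposited normalized log2 expression values, and for their own comparison a log2 fold change with its raw and adjusted p-values. How they were normalized is not given in the sources used here, and without counts the depth is unknown. Rows at 0 in all libraries (30280) were left out, and genes with a log2 value of at least 0 in at least 2 libraries were tested (17303). Limma 3.58.1 with a mean-variance trend (R 4.3.3) was run on the values as deposited, with Benjamini-Hochberg adjustment over all genes tested. The fit assumes the same spread in both groups and draws each gene's spread toward that of genes at like levels. It was tested on simulated data with equal spread in all libraries for each gene, which do not cover the unevenness of WT replicate 4. Differences are knockout minus WT. Values in text are given by replicate number, and SD is over 2 libraries. Members and gene lists were chosen with earlier results of these data known. All members are named, and of each neighbouring list those with the smallest p, up to 4, beside those a small count required. Coordinates are from the GENCODE annotation and promoters from RefSeq, both on GRCm38. Alternatives left out each library and changed the scale, normalization or filter.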

Additional observations from a re-analysis of the deposited data

How the results depend on the processing

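No gene was called by limma in any of the settings that kept all 4 libraries (pseudocount of 1, median centring, quantile normalization, no filter, a minimum log2 value of 5). Leaving out 1 library at a time gave 0 to 4960 called genes and 0 to 6 called members. The 6 were Hk3, Pfkp, Aldoa, Gapdh, Eno1 and Ldha, all without WT replicate 5, where WT replicate 4 stood alone for WT and was assumed to vary like the knockout pair. The members' median difference ranged from -0.034 to 0.53 in these fits. The number of members above both WT libraries, or the 1 left, ranged from 11 to 18, and below from 6 to 14 (added after the values were seen). With 1 library less, such counts can only stay or rise, so the rise from 9 and 6 is not a result about the members. Against WT replicate 5 alone, 14 lay above and 14 below, beside 41.8% and 33.4% of all genes tested. Against WT replicate 4 alone, 18 lay above and 11 below, beside 6665 and 8772 of the 17303 genes tested. With a knockout library left out, the share over all genes was not counted. Median centring moved the median of all genes from -0.09 to -0.23 and quantile normalization moved it to 0.16. Slc16a3 turned to -0.13 with centring and -0.69 with quantile normalization. Quantile normalization also turned Aldoa to 1.16, Eno1 to 0.72, Pkm to 2.53, Pdk3 to -0.17, Hif1a to 0.077, Bnip3 to -0.25 and Bnip3l to -0.23, and the cause was not tested. With 1 library left out, the difference changed sign in 16 members, with ranges of -0.51 to 0.52 for Slc16a3, -0.47 to 2.12 for Hk3, -0.33 to 0.84 for Gpi1, -0.39 to 0.37 for Pfkl, -0.79 to 1.51 for Pfkm, -6.52 to 0.22 for Aldoa, -4.66 to 3.24 for Aldoc, -2.15 to 0.36 for Pkm, -0.061 to 1.66 for Ldha, -0.55 to 1.66 for Ldhb, -0.73 to 1.94 for Pdk3, -0.36 to 0.24 for Hif1a, -0.42 to 0.93 for Egln1, -0.56 to 1.02 for Bnip3, -0.58 to 1.33 for Bnip3l and -1.65 to 0.44 for P4ha1. The 3 paralog ratios kept their direction with each library left out, at 0.95 to 2.96. No paired analysis was possible because the groups share no replicate number, and the number in the titles leaves 1 knockout library on its own. Without counts, no detection limit could be set.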
